A study of Homo sapiens with 28 samples.

Results

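The B cell program genes examined here were PAX5, EBF1, SPI1, SPIB, BCL6, BACH2, MS4A1, CD79A and CD79B, and their members were the 71 of 154985 accessible regions that the deposited annotation assigns to one of these 9 genes by nearest transcription start site, at promoters and further away. The rule for choosing them used gene names and no measured value. ATAC-seq uses a transposase to cut and tag accessible chromatin, and was run on 50000 sorted viable cells per library. The 22 untreated libraries were from 22 myeloma cell lines that carry no treatment in the labels, and 6 of these lines (Karpas620, KMS27, L363, MM1S, OPM2 and RPMI8226) were also assayed on day 3 of 10 µM lenalidomide, an immunomodulatory drug that directs the degradation of the transcription factors IKZF1 and IKZF3. Each line was assayed once per condition, all are established tumor lines grown in culture, and normal B cells or plasma cells were not analysed here. Whether the untreated cells of a pair received a vehicle is not given in the sources used here.

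B cells are kept in their identity by a network of transcription factors. EBF1 and PAX5 switch on B lineage genes, the related ETS factors SPI1 (PU.1) and SPIB act with them, and the repressors BCL6 and BACH2 hold germinal center and activated B cells back from secretion. When a B cell becomes a plasma cell, PRDM1 (BLIMP1) represses this network. CD79A and CD79B encode the signaling chains of the B cell receptor, and MS4A1 encodes CD20, a surface protein lost from most plasma cells. Myeloma is a cancer of plasma cells, some of which retain CD20 or PAX5.

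Untreated libraries held between 1599857 and 5564534 counts in regions (median 2239819) and lenalidomide libraries between 2168680 and 4248017. Levels are given as CPM, the count of a region scaled by the total over all regions of the library, with 95% Wilson intervals that cover counting error only. A region was taken as open in a line, written below as having a peak, where the deposited table of whole numbers was above 0 for that library. This was read as a peak called in that library, although the files do not define it. Plasma cell markers were present in these libraries, since the promoter regions of 7 of 8 listed genes, PRDM1, IRF4, XBP1, SDC1, TNFRSF17, CD38 and MZB1, had a peak in 11 or more lines, and SLAMF7 had one in 2. Of 5 T cell markers, CD3D had no promoter region, CD3E and CD3G had a peak in 1 line each, CD247 in 7 and CD8A in 21. Of 5 myeloid markers, MPO, CSF1R and LYZ had no promoter region and the summed level of CD14 and ITGAM ran from 0 to 16.8 CPM. Erythroid markers (2 of 3 with a promoter region) summed to between 0.944 and 31.8 CPM and epithelial and stromal markers (4 of 5) to between 7.9 and 122.2 CPM.

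The member promoters fall into CpG-rich and CpG-poor sequences, and a few are shown to make that difference visible. They are the 250 bases before the start from RefSeq (GRCh38.p14), found by exact match in GRCh37. The table matched BACH2, BCL6, CD79A, EBF1, PAX5 and SPIB, and did not hold SPI1, MS4A1 and CD79B. The PAX5 bases (chr9:37034266-37034515, minus strand) hold 27 CpG dinucleotides, those of BCL6 (chr3:187463257-187463506, minus strand) 12, those of SPIB (chr19:50921945-50922194, plus strand) 7 and those of CD79A (chr19:42381099-42381348, plus strand) 4. The last sequence is the middle of the BACH2 region that rose with lenalidomide (chr6:90928436-90928735, plus strand). All are written 5′ to 3′, and capitals mark the motifs searched: CCCNNGGG in SPIB, CAGGTG in CD79A, and in BACH2 an AP-1 motif TGANTCA, an E-box CAGGTG and the reverse strand of the composite GGAANNGAA, in this order.
PAX5: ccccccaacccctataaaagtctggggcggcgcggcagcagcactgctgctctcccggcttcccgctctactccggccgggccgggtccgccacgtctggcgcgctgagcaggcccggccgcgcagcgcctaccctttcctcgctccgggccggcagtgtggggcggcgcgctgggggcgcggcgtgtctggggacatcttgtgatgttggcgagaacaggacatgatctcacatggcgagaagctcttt
BCL6: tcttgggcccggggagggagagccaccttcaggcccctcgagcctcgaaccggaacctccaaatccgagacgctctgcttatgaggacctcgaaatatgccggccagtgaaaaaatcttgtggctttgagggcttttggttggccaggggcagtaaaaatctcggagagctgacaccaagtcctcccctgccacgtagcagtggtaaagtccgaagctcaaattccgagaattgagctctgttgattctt
SPIB: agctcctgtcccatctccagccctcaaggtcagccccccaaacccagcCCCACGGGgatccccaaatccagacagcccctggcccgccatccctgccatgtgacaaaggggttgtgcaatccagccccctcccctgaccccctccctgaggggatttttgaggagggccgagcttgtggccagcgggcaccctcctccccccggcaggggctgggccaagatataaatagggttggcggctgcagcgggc
CD79A: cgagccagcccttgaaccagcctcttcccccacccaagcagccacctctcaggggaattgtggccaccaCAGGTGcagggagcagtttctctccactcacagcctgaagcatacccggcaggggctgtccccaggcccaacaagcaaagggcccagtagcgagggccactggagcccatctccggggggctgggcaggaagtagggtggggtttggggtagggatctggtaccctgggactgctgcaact
BACH2: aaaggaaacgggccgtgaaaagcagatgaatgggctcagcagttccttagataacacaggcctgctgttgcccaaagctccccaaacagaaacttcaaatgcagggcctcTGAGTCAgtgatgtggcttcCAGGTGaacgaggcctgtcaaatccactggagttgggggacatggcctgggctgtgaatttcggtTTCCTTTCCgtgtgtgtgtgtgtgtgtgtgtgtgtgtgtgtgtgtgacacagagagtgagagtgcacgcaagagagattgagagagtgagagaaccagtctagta

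Most of the 9 promoters were open in few lines, and those of BCL6, BACH2 and CD79B in most. A promoter region was taken as the region nearest the annotated start, within 1 kb of it, and each of the 9 genes had one. None of the 9 had a peak in all 22 untreated lines, as against 25.7% of 20374 promoter regions of all genes. In 11 or more lines, 3 had a peak (33.3%, against 52.5% of all promoter regions), namely BCL6, BACH2 and CD79B. In 3 lines or fewer, 5 had a peak (55.6%, against 31.4%), namely PAX5, SPIB, SPI1, MS4A1 and CD79A. EBF1 lay between them, with a peak in 6 lines.

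**Figure D1:**
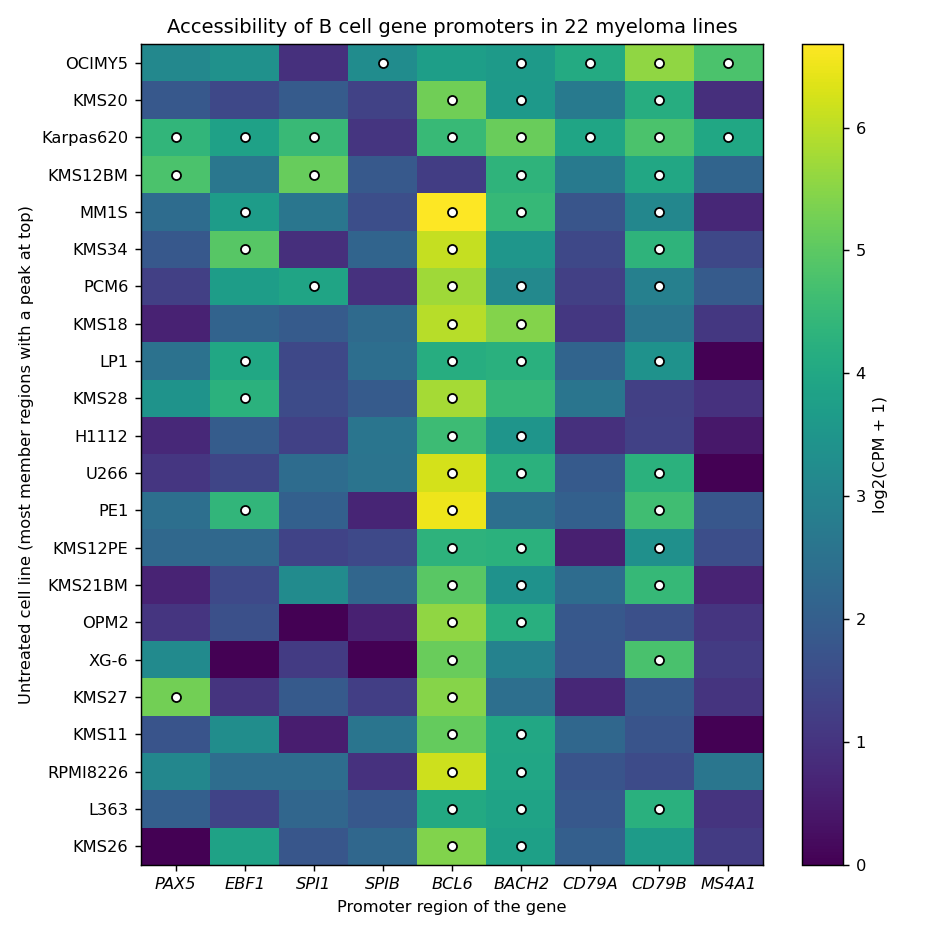
Accessibility at the promoter region of each of the 9 genes (columns) in each of the 22 untreated lines (rows, ordered by the number of member regions with a peak), as log2(CPM + 1); white dots mark a peak of that line. Colors compare lines within a column, since CPM is not per length here. Karpas620 has dots in 8 of 9 columns and OCIMY5 in 5, while BCL6 and BACH2 have dots in most rows.

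Of the pioneer and lineage factors, PAX5 was open at its promoter (chr9:37034253-37035017, at the gene start and mostly upstream of it) in 3 lines. KMS27 had 37.4 CPM (31.1 to 45.1), KMS12BM 26.8 (22.1 to 32.6) and Karpas620 20.1 (15.6 to 26). The other 19 lines lay between 0 and 9.74 CPM (KMS28), so the 3 open lines stood clear of the rest by more than their counting error, and the median over 22 lines was 3.44 CPM. At 0 of 1635784 counts, KMS26 allows up to 1.83 CPM. EBF1 had promoter peaks (chr5:158526060-158526633, in its first exon and intron) in KMS34, PE1, KMS28, LP1, Karpas620 and MM1S, with values from 29.9 CPM in KMS34 to 12 in MM1S. Its levels formed a continuous range, and KMS26 (13.4) and PCM6 (12.1), which had no peak, lay above MM1S.

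SPI1, better known as PU.1, was open at its promoter (chr11:47399692-47400423, over the first exon) in KMS12BM at 34.2 CPM (28.8 to 40.6), in Karpas620 at 22.2 (17.4 to 28.3) and in PCM6 at 13.9 (9.77 to 19.9). The next line was KMS21BM at 8.33 CPM, whose value lay near the lower bound of PCM6, and the median was 2.75. SPIB, a factor of the same family, had the fewest open lines of the 9 promoters (chr19:50921986-50922294, first exon). OCIMY5 alone had a SPIB peak, at 8.55 CPM (5.95 to 12.3), and the interval of the next line, KMS11 at 5.05 CPM (2.82 to 9.05), overlapped it. A second SPIB region upstream also had a peak in OCIMY5 alone.

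The promoters of the repressors were the most widely open of the member promoters. The BCL6 promoter region (chr3:187462907-187463767, over the first exon) had a peak in 20 lines, and its level ran from 1.31 CPM in KMS12BM through a median of 39 to 101.6 (90.7 to 113.9) in MM1S. KMS12BM and OCIMY5 had no BCL6 promoter peak, and OCIMY5 (12.4 CPM, 9.16 to 16.7) differed from the next line, L363 (15.8), by less than its counting error. The BACH2 promoter region (chr6:91006234-91006833, over the first exon) had a peak in 17 lines. Over the 22 lines its level ran from 4.38 CPM in KMS27 and PE1, which had no peak, through a median of 14.2 to 42.1 (33.6 to 52.7) in KMS18. KMS28 had no BACH2 peak there at 20.9 CPM, whereas PCM6 had one at 7.9, so peak calls and levels did not order the lines in the same way.

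Of the 3 surface genes, MS4A1 and CD79A were open at the promoter in the same 2 lines, OCIMY5 and Karpas620. At MS4A1 (chr11:60222865-60223420, over the first exon) OCIMY5 had 26.8 CPM (21.9 to 32.9) and Karpas620 14.9 (11.1 to 20.1), the next line was RPMI8226 at 5.19 (2.9 to 9.3), and KMS11, LP1 and U266 had 0 counts, which allows up to 1.38, 1.3 and 0.82 CPM. At CD79A (chr19:42380920-42381845, over the first exon) OCIMY5 had 15.9 CPM (12.2 to 20.8) and Karpas620 14.2 (10.5 to 19.3), 2 values that differ by less than their counting error, and KMS12BM followed at 5.79 (3.82 to 8.76). The promoter region of CD79B, which encodes the partner chain of CD79A (chr17:62009309-62010178, over the first exon) had a peak in 14 lines, from 6.51 CPM in PCM6 to 46.3 (39.6 to 54.1) in OCIMY5, and KMS26 had none at 11.6 CPM.

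To set these levels beside genes that plasma cells use, each promoter was compared per length within each library with the mean of the 8 plasma cell marker promoters. On the scale of log2(CPM per kb + 1), the plasma cell promoters averaged 4.92 and 8 of 9 members lay lower in a permutation test over lines (100000 random sign flips, two-sided, Benjamini-Hochberg adjusted over 9). The differences were −3.05 ± 1.45 (SD over 22 lines) for MS4A1, −2.85 ± 0.99 for CD79A, −2.56 ± 1.44 for SPI1, −2.38 ± 1.52 for PAX5, −1.95 ± 1.06 for SPIB, −1.60 ± 1.52 for EBF1 and −1.40 ± 1.40 for CD79B, with adjusted permutation p between 2.25e-05 and 0.000167. The smallest p that these flips can give is 1e-05. The markers were listed as genes that plasma cells use, with earlier results of these data known. A lower level of other promoters was therefore likely beforehand, and the p-values hold only against this list. CD79A and SPIB were lower than the plasma cell promoters in all 22 lines. MS4A1 reached them only in Karpas620 and OCIMY5, PAX5 only in Karpas620, KMS12BM and KMS27, SPI1 only in Karpas620, KMS12BM and PCM6, EBF1 only in KMS34, PCM6 and PE1, and CD79B only in Karpas620, OCIMY5, PE1 and XG-6.

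The repressors sat near the plasma cell genes. BACH2 was −0.36 ± 0.70 lower on this log2 scale, in 16 of 22 lines (adjusted permutation p = 0.0273), and this became −0.98 with the tallest region within 2.5 kb of the start and −0.88 with CPM not taken per kb. The SPIB difference became −3.03 with CPM not per kb. BCL6 was 0.40 ± 1.25 higher, in 15 of 22 lines, which the permutation test did not separate from 0 (adjusted p = 0.143). Copy number was not removed from any level, and its part in differences between lines was not tested.

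Across all 71 member regions, OCIMY5 had the most open, 32 (45.1%, against 25.1% of all regions in that library). KMS20 followed with 28 (39.4%, against 35.1% of all regions), Karpas620 with 25 (35.2%, against 22.5%) and KMS12BM with 22 (31%, against 21.6%). KMS26 had the fewest, 8 (11.3%, against 14.7%), and the median line had 16.5. In 14 of 22 lines the share of member regions with a peak was above the share of all regions. Of the member regions, 17 of 71 lay within 1 kb of a start, against 29459 of all 154985, and the median width was 500 bp against 420. Over all regions, 41.1% of those within 1 kb of a start had a peak in 11 or more lines, against 8.68% of those beyond it. The part of position and width in these shares was not tested. The deepest library, H1112, had peaks in 38.1% of all regions and in 23.9% of member regions. Over the 22 lines, member regions with a peak rose with all regions with a peak (Pearson r = 0.558, Spearman rho = 0.645) and with total counts (r = 0.48, rho = 0.541), and since both counts come from the same library and depth these are descriptions.

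**Figure D2:**
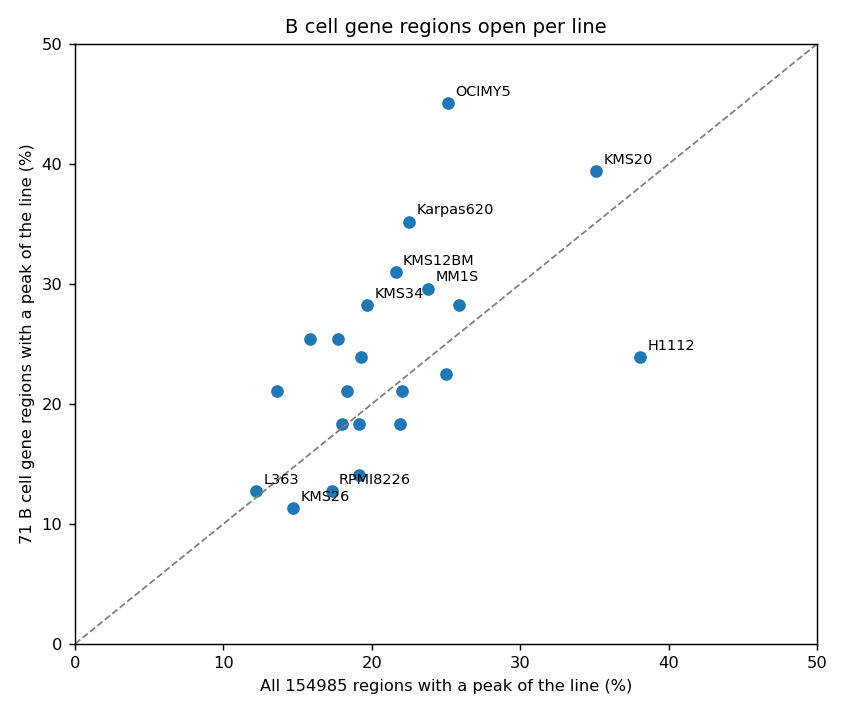
Share of the 71 member regions with a peak (vertical axis, %) against the share of all 154985 regions with a peak (horizontal axis, %) for each of the 22 untreated lines, with the line of equal shares dashed. OCIMY5 sits farthest above the dashed line at 45.1% against 25.1%, and H1112 below it at 23.9% against 38.1%.

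The lines with many open member regions differed in the genes these regions belonged to. Of the 32 regions of OCIMY5, 11 were at BACH2, 5 at EBF1, 4 at BCL6, 3 each at PAX5, MS4A1 and CD79A, 2 at SPIB and 1 at CD79B, and none was at SPI1. Karpas620 had 5 each at BACH2 and EBF1, 4 at PAX5, 3 each at BCL6 and MS4A1, 2 each at CD79A and CD79B, 1 at SPI1 and none at SPIB. KMS12BM had 10 at BACH2 and 5 at PAX5, and none at BCL6. OCIMY5 was the single line with a peak in 5 member regions and Karpas620 in 4, whereas 11 lines had no such region. Over the members, 21 of 71 regions had a peak in 1 line only (29.6%, against 37.1% of all regions). The same count per line over all regions was not made. Summed over the 71 regions, the level ran from 269.2 CPM in H1112 through a median of 456 to 773.8 in PE1, with 721.6 in OCIMY5.

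KMS12BM and KMS12PE share a name in the labels and are known as sister lines, yet several member promoters differed between them. PAX5 was at 26.8 CPM in KMS12BM and 3.82 in KMS12PE, SPI1 at 34.2 and 1.53, and BCL6 at 1.31 and 18.8. The PAX5 region 40.2 kb inside the gene (chr9:36993776-36994386, intronic) had a peak in both, at 30 CPM in KMS12BM and 5.6 in KMS12PE, and otherwise only in Karpas620, at 12.5. Over all regions the correlation of the 2 libraries ranked 15 among the 231 pairs of lines (r = 0.755), and over the 71 member regions it ranked 116 (r = 0.658).

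Away from the promoters, BACH2 held the member region that was open in every line. This intronic region (chr6:90993995-90995990, 11.6 kb inside the gene) had a peak in 22 of 22 lines, from 27 CPM in L363 through a median of 61.9 to 118.8 in PE1. It was the only one of the 71 with a peak in all lines (1.41%, against 3.98% of all regions). A further intronic BACH2 region, 45.3 kb inside the gene, was open in 19 lines. One 78 kb inside, at −180 bp from the annotated start of a shorter BACH2 transcript, was open in 16. Of 20 BACH2 regions, 5 were open in 11 or more lines (against 14.8% of all regions), and 3 in 1 line (against 37.1%).

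PAX5 had an intronic region (chr9:37027244-37028101, 6.59 kb inside the gene) that was open in 21 lines, including 18 whose PAX5 promoter had no peak. Its level ran from 2.32 CPM in PCM6, the line without a peak, through a median of 28.8 to 49.9 in KMS27, and Karpas620 (47.2) and KMS12BM (45.8) followed. The 3 lines with an open promoter thus had the 3 highest levels at this intronic region too. A PAX5 region at −2.72 kb, upstream of the start, was open in 11 lines and one 38.2 kb inside the gene in 14.

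At EBF1, 1 of 20 regions was open in 11 or more lines (against 14.8% of all regions), 9 were open in a single line (against 37.1%) and 1 had no peak in any untreated line (against 8.06%). The EBF1 region with the highest mean away from the promoter lay beyond the 3′ end of the gene (chr5:158106070-158106657) and was open in 8 lines. The most widely open one overlapped the last exon (chr5:158122484-158123081) and had a peak in 13 lines, with levels over all 22 lines from 0.522 CPM in OPM2, which had no peak, to 17.5 in PE1. At BCL6, an intronic region (chr3:187456329-187457090, 6.8 kb inside the gene) was open in 17 lines, with 75 CPM in PE1. It lay at −596 bp from the annotated start of a shorter BCL6 transcript. The tallest BCL6 region beyond 1 kb of an annotated start (chr3:187457616-187458008, intronic) had a peak in 6 lines and ran from 0.624 CPM in XG-6 through a median of 12.6 to 41.3 in PE1, which had no peak there. The tallest distal MS4A1 region (chr11:60213810-60214638) lay in an intron of the neighboring gene MS4A5 and was open in 15 lines, and the tallest of CD79A (chr19:42375532-42376247) overlapped an exon of RPS19 and was open in 6, so neither can be tied to the member gene by position alone. SPI1 had an intronic region with a peak in 4 lines, none of them a line with an open promoter, and the distal CD79B region had a peak in Karpas620 alone.

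**Figure D3:**
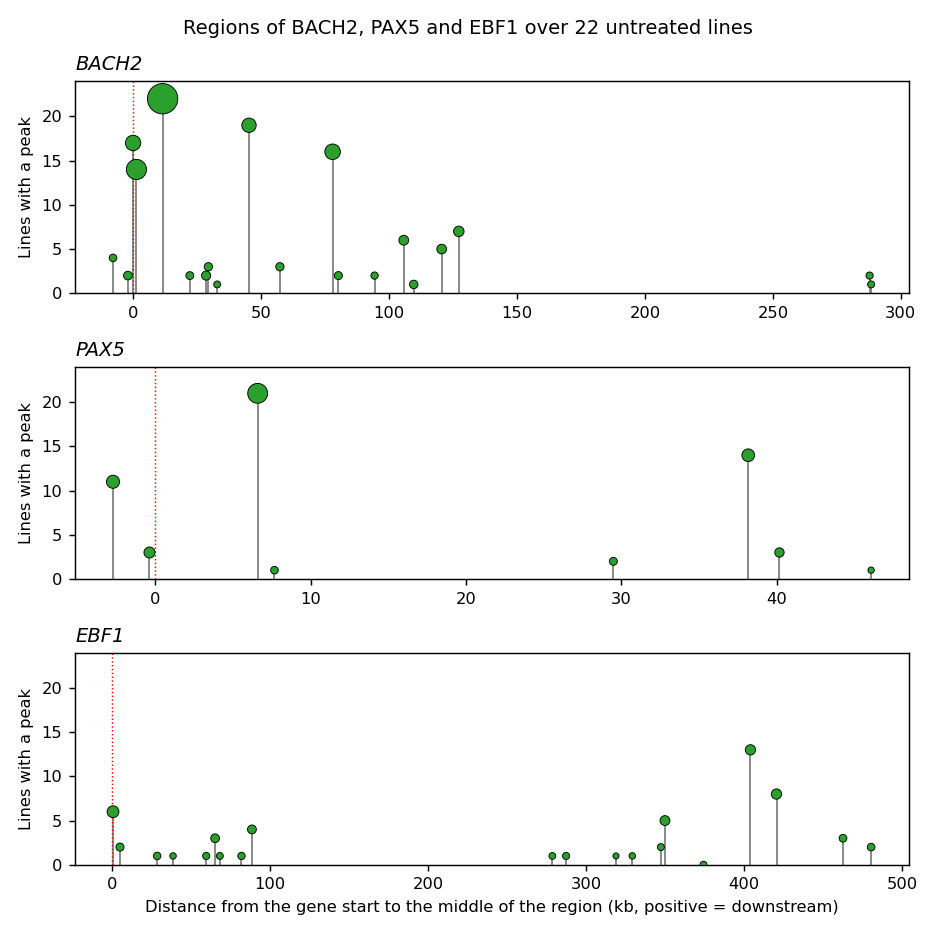
Regions of BACH2, PAX5 and EBF1 by distance from the gene start (horizontal axis, kb, positive downstream, start dotted) and number of the 22 untreated lines with a peak (vertical axis); circle area grows with mean CPM. The tall BACH2 circle at 11.6 kb reaches 22 lines and the PAX5 circle at 6.59 kb 21, whereas the PAX5 promoter reaches 3 and most EBF1 regions 1 to 3.

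How often a promoter was open differed with its CpG content over all genes. Promoter regions with an observed over expected CpG ratio below 0.6 had a peak in a median of 3 lines (8521 regions, 56.9% in 3 lines or fewer), and those at or above it in a median of 21 (11853 regions, 13%). Among the members, CD79A (0.112), MS4A1 (0.124), CD79B (0.305), SPI1 (0.332) and SPIB (0.344) were below this ratio, as the few CpG dinucleotides in the CD79A and SPIB bases printed above show. PAX5 (0.724), BCL6 (0.785), BACH2 (1.01) and EBF1 (1.04) were above it. PAX5 with 3 open lines and EBF1 with 6 lay below the median of 21 of their class, and CD79B with 14 above the median of 3 of its own. The part of CpG content in these differences was not tested.

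Short motifs known from B cell factors were searched on both strands in the middle 300 bases of each region. The octamer ATGCAAAT was in 5.63% of member regions and 3.72% of all regions, and of the promoters only in that of CD79B. The EBF1 core CCCNNGGG was in 14.1% against 10%, at the SPIB, SPI1, MS4A1 and CD79B promoters. The E-box CAGGTG was in 39.4% against 32.1%, the composite GGAANNGAA in 9.86% against 9.47%, TGANTCA (AP-1) in 14.1% against 15.2% and GAGGAAGT in none against 3.53%. The motifs can overlap one another, and a match describes letters, not binding.

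Other B cell genes were counted in the same way. Of 21 listed genes with a promoter region, 13 had a peak there in 11 or more lines (against 52.5% of all promoter regions) and 4 in all 22 (against 25.7%), namely CD72, CIITA, POU2AF1, which encodes a B cell coactivator, and ETS1. Peaks of CD22 and FCER2, both encoding B cell surface receptors, were found in Karpas620 alone, and the POU2F2 peak in U266 alone. Karpas620 had the most of these promoters open, 17 of 21, where 58.2% of all promoter regions had a peak. KMS20 followed with 16 and H1112 with 15, the lines with the highest shares of all promoter regions (65.2% and 62.1%), and KMS21BM and L363 had the fewest with 9 (48.1% and 49.5%).

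Promoters of other genes on other chromosomes were compared with each member promoter open in 3 to 19 lines, by Pearson r of log2(CPM + 1) over the 22 lines among 15645 to 15915 promoters. The closest were ARRB1 for PAX5 (r = 0.81), RP1-45C12.1 for BACH2 (0.759), RP11-555K12.1 for SPI1 (0.862), PRTG for EBF1 (0.796) and POU2F2 for CD79B (0.795). These are the highest of many values from shared libraries, and describe likeness over these lines. Among the member promoters themselves, the highest was 0.566 between MS4A1 and CD79A, with a Spearman rho of 0.0673, and OCIMY5 and Karpas620 were the highest lines at both.

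With lenalidomide, 1 of the B cell regions passed the test. In edgeR's quasi-likelihood test with the cell line as a block, 2036 of 37732 regions passed an adjusted p of 0.05 (5.40%), 1575 higher (4.17%) and 461 lower (1.22%) with the drug. Of the 71 member regions, 22 passed the filter on low counts, and 1 of these rose and none fell, so members were called at about the rate of all regions. The median log2 change over the 22 was 0.04, against −0.01 over all regions tested, and 13 of the 22 lay above 0. The promoter regions of MS4A1, CD79A, SPIB and SPI1 did not pass the filter and were not tested in this fit.

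The region that rose was a BACH2 region 78 kb inside the gene (chr6:90928145-90929027), in an intron and at −180 bp from the annotated start of a shorter BACH2 transcript. Its level went from 17.7 to 45.8 CPM in Karpas620, from 0.675 to 8.89 in KMS27 and from 2.55 to 4.15 in L363. It went from 24.4 to 49 in MM1S, from 31.3 to 61 in OPM2 and from 24.6 to 25.9 in RPMI8226. All 6 lines were higher with the drug, though the levels with and without it overlapped over the lines, and KMS27 and L363 gained a peak. RPMI8226 rose least (log2 difference 0.07). Counts without and with the drug were low in L363 (5 and 9) and started low in KMS27 (2 and 26). The log2 change was 1.00 ± 0.19 (SE, 6 pairs), with an edgeR adjusted p of 0.0007672. Leaving out KMS27 gave 0.86 and leaving out RPMI8226 1.25, both still past the threshold, and without the block the change was 0.97 with an adjusted p of 1. The untreated level of this region ran from 0.359 CPM in H1112 through a median of 13 to 46.1 in KMS12PE over the 22 lines.

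The main BACH2 promoter and the tallest BACH2 region did not pass the test. At the main promoter the change was −0.16 ± 0.18 (edgeR adjusted p = 0.7277), with Karpas620 at 34.7 and 31.3 CPM, MM1S at 21.3 and 16.7, and OPM2 at 17.7 and 21.7 before and with the drug. At the intronic region open in every line it was −0.09 ± 0.10 (adjusted p = 0.7248). Further BACH2 and BCL6 regions had an unadjusted p under 0.05 in edgeR, 1 each, with log2 changes of 0.66 ± 0.29 (127.3 kb inside BACH2, adjusted p = 0.2222) and 0.36 ± 0.17 (the intronic BCL6 region above, adjusted p = 0.2649).

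**Figure D4:**
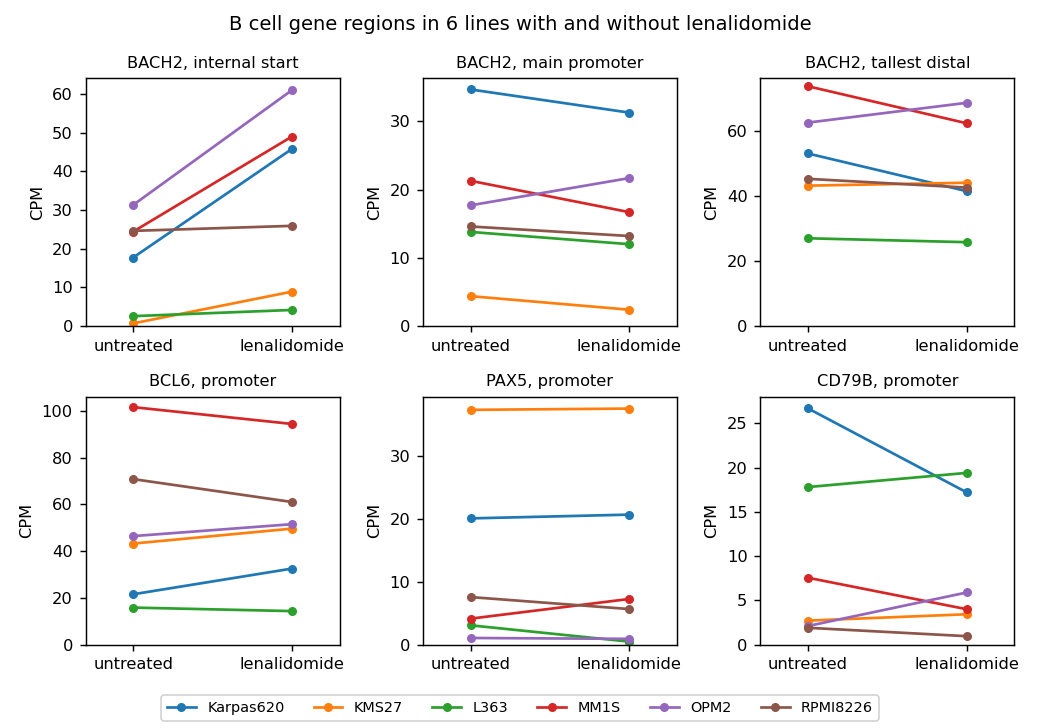
Level (CPM) of 6 member regions in the 6 lines assayed untreated and with lenalidomide; each line joins the 2 libraries of a cell line, and each panel has its own axis from 0. Lines slope upward at the internal BACH2 start, from 31.3 to 61 CPM in OPM2 for instance, and run in both directions in the other panels.

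The remaining promoters tested showed no change past the threshold. The log2 changes were −0.03 ± 0.23 for PAX5, 0.07 ± 0.11 for BCL6, 0.00 ± 0.28 for EBF1 and −0.20 ± 0.26 for CD79B (SE, 6 pairs, edgeR adjusted p between 0.7753 and 0.9975). KMS27 and Karpas620 had a PAX5 promoter peak in both libraries. These pairs stood at 37.4 and 37.6 CPM and at 20.1 and 20.7 CPM before and with the drug. RPMI8226 had a PAX5 promoter peak only with the drug, at 7.56 CPM before and 5.65 with it (16 and 24 counts). The MS4A1 promoter was too low for the filter, and without it the log2 change was −1.02 ± 0.43 with an edgeR adjusted p of 0.266. Its level went from 14.9 to 5.87 CPM in Karpas620 (43 and 15 counts) and from 5.19 to 3.53 in RPMI8226 (11 and 15 counts), with 3 counts or fewer in each library of the other 4 lines. Karpas620 kept a peak at the SPI1, MS4A1 and CD79A promoters with the drug. MM1S lost its peak at the EBF1 promoter (35 and 19 counts) and at the CD79B promoter (22 and 11 counts). RPMI8226 gained a peak at the SPI1 promoter (9 and 31 counts). Beyond the promoter regions, KMS27 and Karpas620 both lost the peak at the PAX5 region at −2.72 kb.

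**Figure D5:**
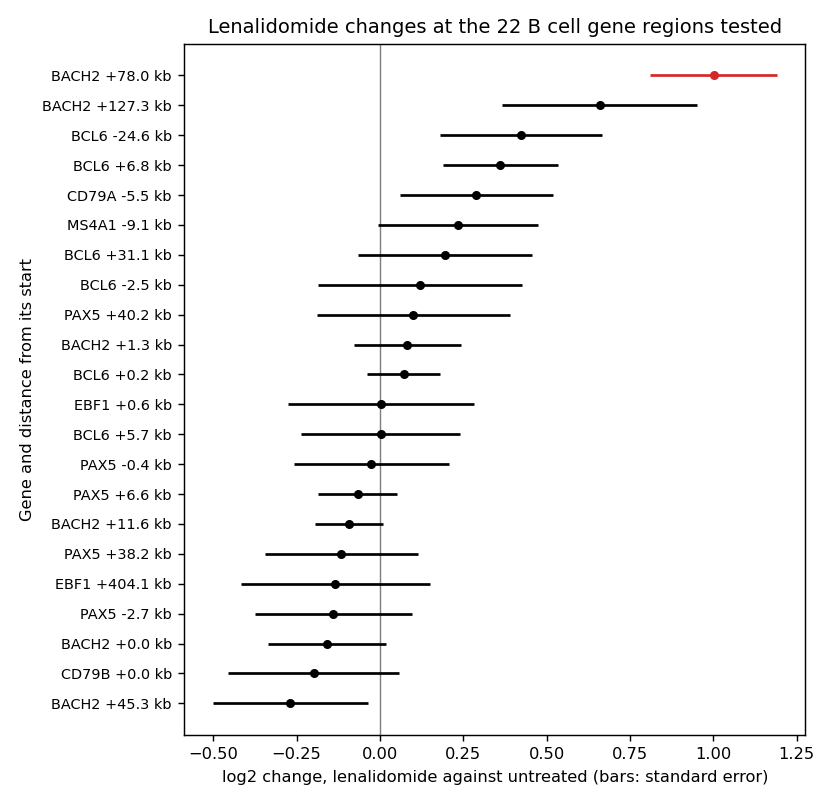
log2 change with lenalidomide (horizontal axis, bars are SE from the edgeR fit to 6 pairs) at the 22 member regions tested. Regions are named by gene and distance from its start, and red marks an adjusted p below 0.05. The BACH2 region at 78 kb stands at 1.00, and the others lie between −0.27 and 0.66.

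Counting peaks gained and lost with the drug in the 6 pairs, member regions gained 28 and lost 14, so 66.7% of their changed peaks were gains, against 68.3% of those of all regions. Of 63 tested regions of other B cell genes, 6 passed the threshold in edgeR (9.52%, against 5.40% of all regions tested), 4 higher (against 4.17%) and 2 lower (against 1.22%). BLNK, an adaptor of B cell receptor signaling, rose at its promoter (log2 change 0.80 ± 0.20) and within the gene (1.45 ± 0.32). ETS1 and TCF3, which encode transcription factors, each had 1 region that rose (2.33 ± 0.33 and 0.55 ± 0.16) and 1 that fell (−0.93 ± 0.21 and −0.68 ± 0.19), with adjusted p between 2.017e-05 and 0.04215 over these 6.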

How the data were processed

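ATAC-seq was performed by the authors on 22 myeloma cell lines, 6 of them also with lenalidomide, 28 libraries in all. The paper's methods describe, under a heading shared with ChIP-seq, alignment to GRCh37, marking of PCR duplicates and peak calling at a q of 0.01, and the submitters' processing notes name Bowtie2 2.2.6, SAMtools 1.7 and MACS2 2.1.0.20151222. Whether duplicates were removed, read ends were shifted or fragments were counted is not given in the sources used here. The authors deposited raw counts per merged region, RPM values, and whole numbers (unit score) read here as the library's own peaks in the region. The deposited RPM equal CPM computed from the counts to within 5.5e-12, so only the counts were used. No line was assayed again under one condition, so no error within a line can be given.

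The members and gene lists were chosen with earlier results of these data known. All 9 members are named, each with its promoter region, its distal region of highest mean CPM (SPIB has no distal region) and any region past the lenalidomide threshold. For members open in 3 to 19 lines the 3 most alike promoters with a mean of at least 2 CPM were found, of which the first is given. From the lists of other B cell genes, those past the threshold and those with the most and the fewest open lines are named, and some genes of that list are not reported here. Further regions in the text were named after their values were seen. Distances are to the middle of a region from the gene start in the GENCODE annotation for GRCh37, and promoters were assigned by the deposited annotation.

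The lenalidomide comparison used edgeR 4.0.16 (limma 3.58.1, R 4.3.3) on the deposited counts with TMM scaling, filterByExpr by condition, a quasi-likelihood test and Benjamini-Hochberg adjustment over all regions tested, after a test on simulated data. The labels name the same cell line in both libraries of a pair, and the line was the block. The edgeR p-values set the change within a line against its spread over 6 pairs. edgeR estimates that spread partly from all regions tested. SE were derived from the log2 change and its F statistic, so they also rest on this shared estimate. Promoter levels were compared in Python 3.11.15 with a pseudocount of 1. Alternatives were DESeq2 1.42.0, no TMM, other count filters, no replicate block, each line left out, a pseudocount of 0.1, other promoter definitions and 2 CPM in place of a peak.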

Additional observations from a re-analysis of the deposited data

Results flagged for a closer look

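Values far from the others were looked for among the 6 lines with both conditions, at the main regions of each gene. Of 54 sets of 6 libraries, 6 held such a value. No number due by chance is given, since sets of a region share libraries and many hold low CPM. All 6 of these values were Karpas620 standing above the other lines. At the SPI1 promoter it had 22.2 CPM untreated (next line 5.15) and 17.6 with lenalidomide (next 7.3). At the CD79A promoter it had 14.2 CPM untreated (next 2.61) and 18 with lenalidomide (next 2.77). At the MS4A1 promoter it had 14.9 CPM untreated (next 5.19), and at the distal CD79B region 4.51 CPM untreated (next 1.02). At SPI1 and CD79A the separate libraries of Karpas620 with and without the drug both stood apart.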

How the results depend on the processing

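The number of lines with an open promoter depended on what counts as open. At 2 CPM or more in place of a peak, it was 15 for PAX5, 13 for SPIB and SPI1, 16 for EBF1 and CD79A and 7 for MS4A1. With the tallest region within 2.5 kb it was 11 for PAX5 and 5 for CD79A, and with any region within 5 kb 12 for PAX5 and 8 for SPI1 and CD79A. The share of member regions open in OCIMY5 became 76.1% at 2 CPM, and OCIMY5 ranked first there and without each gene in turn (41.2% to 52.9%). By summed CPM, PE1 came first, and OCIMY5 with TMM scaling. The plasma cell comparison kept its direction and its side of the threshold for all 9 members under 4 alternatives, though SPIB moved from −1.95 to −3.03 and BACH2 from −0.36 to −0.88 with CPM not per kb.

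With lenalidomide, DESeq2 called 834 regions, edgeR on unfiltered counts 4092 and edgeR with 10 counts or more per library 587. With a line left out the count was 1067 (without MM1S) to 2503 (without RPMI8226), and 1310 without KMS27. Without the replicate block that pairs the libraries of a line, edgeR called 0 regions (440 at an unadjusted p under 0.05) and 0 members, and the BACH2 change of 0.97 lost its call. Member calls were 1 in each leave-one-out fit and with DESeq2, 0 at 10 counts or more per library, where 4 members were tested, and 2 with no filter, the second a BACH2 region 120.6 kb inside the gene. Changes near 0 turned sign without a call: PAX5 to 0.01 with no filter, and EBF1 to −0.01 with no TMM and −0.02 with no replicate block. With a line left out, PAX5 ran from −0.17 to 0.06, BCL6 from −0.01 (without Karpas620) to 0.15 and EBF1 from −0.16 to 0.07. The cause of these changes was not tested.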

Other observations

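A BACH2 region 120.6 kb inside the gene, too low for the filter, went with lenalidomide from 2.08 to 10.2 CPM in Karpas620, from 3.06 to 9.22 in L363, from 5.22 to 14.5 in OPM2, from 0.675 to 2.05 in KMS27 and from 1.03 to 2.9 in MM1S. RPMI8226 stood at 0.472 and 0.471 CPM, with 1 and 2 counts. Karpas620, L363 and OPM2 gained a peak there. RPMI8226, whose 2 libraries differed least at this region and at the internal BACH2 start, had 4248017 counts with the drug and 2117764 without, and the part of this depth in its values was not tested.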
